A study of Mus musculus with 8 samples.

Results

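The genes described here are 43 mouse genes of the actin cytoskeleton and of focal adhesions, the sites where actin cables are anchored to the matrix through integrins. They were taken as non-muscle targets of the transcription factor SRF and its MRTF cofactors, together with the partners of their products, and the rule that picks their probe sets uses annotation and no measured value. The genes themselves were chosen with earlier results of these data known. Their shares and medians set against those of all genes are therefore no independent evidence. Of the 43 genes, 39 had at least 1 probe set that named them alone, and all 39 were tested. Myh10, Ptk2, Arpc1b and Arpc3 had none and are not described. The members were represented by 84 probe sets beside 3 control ones, and 82 of these passed the filter on dim probe sets, out of 14947 tested probe sets that covered 8453 genes. Expression was measured on 8 arrays, with 2 in each of 4 groups. The Med23-/- knockout (KO) cells were mouse embryonic fibroblasts from embryonic day 11, carried in culture beyond crisis, after which only cells able to divide without limit remain. One KO group had been starved for 16 h in 0.5% serum and then given 20% serum for 30 min, and the other KO group was kept starved. The wild-type (WT) cells were fibroblasts of the same embryonic day, also taken past crisis, again either starved and given serum or kept starved. The aim stated for the series was to find genes whose serum response is affected by the loss of MED23, a subunit of the Mediator complex. Only 1 line of each genotype is described in the labels, so genotype and line cannot be told apart. The labels do not say whether the 2 arrays of a group came from separate cultures, and p-values therefore measure only the spread between these samples. The samples are bulk RNA, in which fewer cells of a kind and less RNA per cell cannot be told apart.

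As background, actin cycles between free monomers and filaments. Serum drives filament assembly, and as the pool of monomers shrinks the MRTF cofactors are released from actin, enter the nucleus and join SRF on the CArG box. Many SRF and MRTF targets themselves encode actin, actin-binding proteins and adhesion proteins, and SRF also works with another family of cofactors, the ternary complex factors, on the immediate early genes. MED23 is known as the Mediator subunit through which the ternary complex factor ELK1 acts.

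The promoter windows of the members were searched for the CArG box, read as CC, then 6 bases of A or T, then GG, since this is the sequence through which SRF acts. RefSeq windows on GRCm38.p6, running from 250 bases before to 50 bases after a transcript start, were at hand for 38 of the 43 members. A CArG box lay in the windows of 6 of these 38 genes (15.8%), against 488 of all 27025 genes with a window (1.81%). The genes had been chosen as SRF targets and partners, so that share is no independent evidence, and a match is a stretch of letters and not a shown binding site. The sequences below are those of the matching genes with called changes in the results that follow, 5′ to 3′ on the strand of the gene, with the CArG box in capitals. For Vcl, the site began 227 bases before the start and the stretch is chr14:20929148-20929230, plus strand. For Fhl2, one site began 96 bases before a start, at chr1:43196798-43196907, minus strand, and the other 31 bases before another start, at chr1:43163962-43164042, minus strand. For Fhl1, the site began 102 bases before a start, at chrX:56779531-56779640, plus strand. For Actg1, it began 90 bases before the start, at chr11:120348526-120348635, minus strand, and for Rnd3, it began 100 bases before the start, at chr2:51149152-51149261, minus strand.
Vcl: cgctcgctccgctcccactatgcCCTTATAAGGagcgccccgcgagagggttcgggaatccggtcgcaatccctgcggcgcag
Fhl2, first site: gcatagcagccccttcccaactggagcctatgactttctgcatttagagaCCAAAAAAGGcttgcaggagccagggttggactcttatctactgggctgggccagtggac
Fhl2, second site: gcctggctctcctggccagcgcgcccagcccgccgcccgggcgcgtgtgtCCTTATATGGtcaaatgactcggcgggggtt
Fhl1: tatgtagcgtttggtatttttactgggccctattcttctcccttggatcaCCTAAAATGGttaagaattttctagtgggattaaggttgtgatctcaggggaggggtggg
Actg1: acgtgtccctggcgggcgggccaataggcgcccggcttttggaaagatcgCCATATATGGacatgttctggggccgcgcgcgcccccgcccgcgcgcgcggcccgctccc
Rnd3: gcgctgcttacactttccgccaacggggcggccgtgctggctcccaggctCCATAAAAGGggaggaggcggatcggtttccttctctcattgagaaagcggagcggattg
The sixth gene with a match was Arpc4, whose brightest probe set passed no test. The windows of Rhob, Flnc and Zyx held no such letters. The site of the TEAD factors, GGAATG on either strand, was in the windows of 7 of the 38 members (18.4%), against 16.6% of all genes.

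The deposited values were MAS5 signals, a linear measure of brightness per probe set, on arrays scaled to the same trimmed mean (2500.6 to 2500.8). Median signals lay between 764.8 and 920.1, and the 3' to 5' ratio of Actb, a check on RNA quality, lay between 1.029 and 1.065. The Med23 probe set read 34.61 and 36.91 in stimulated KO cells and 28 and 133 in starved KO cells, against 3595 and 3577 in stimulated WT cells and 4901 and 5410 in starved WT cells, as labelled, although the sources do not place the probe set relative to the deletion. The cells held fibroblast markers in both genotypes but not at the same level. Summed over the 11 fibroblast markers on the array, 10 of them tested, the signal was 324895 to 336687 in stimulated KO cells and 352528 to 410147 in starved KO cells, against 213108 to 229492 in stimulated WT cells and 209929 to 234215 in starved WT cells. The sum over 10 smooth muscle and myofibroblast markers on the array, 9 of them tested, was 289751 to 304730 and 289636 to 314485 in stimulated and starved KO cells, against 211828 to 214541 and 184537 to 214872 in stimulated and starved WT cells. Among single markers, Pdgfra was between 6040 and 15782 on the KO arrays and between 13.25 and 129 on the WT arrays. The 2 WT sets were not alike in Col1a2, which read 743 and 581 in set 1 and 9443 and 8871 in set 2. Summed markers of epithelium, endothelium, leukocytes, neural cells and striated muscle stayed at or below 2501 on every array. Within these low sums single markers parted the genotypes. Tubb3 read 15.51 to 93.92 on the KO arrays against 503 to 653 on the WT arrays, Tnnt2 5.69 to 75.24 against 502 to 1068, and Map2 1597 to 2025 against 343 to 359, and all 3 were called in both serum states.

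Most of the genes were strongly expressed. On the log2 scale, the mean signal of 37 of the 39 lay above the 75th percentile of tested probe sets, and that of 32 above the 90th. The 2 arrays of a group differed by a median of 0.05 (stimulated KO), 0.14 (starved KO), 0.10 (stimulated WT) and 0.15 (starved WT) on the log2 scale over the 39 genes. The widest gap was 0.5, for Cap1 in starved KO cells. Each gene was described by its brightest probe set, changes are differences of log2(signal + 16) with their standard error, and a call means an adjusted p under 0.05 in limma over all 14947 probe sets.

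**Figure D1:**
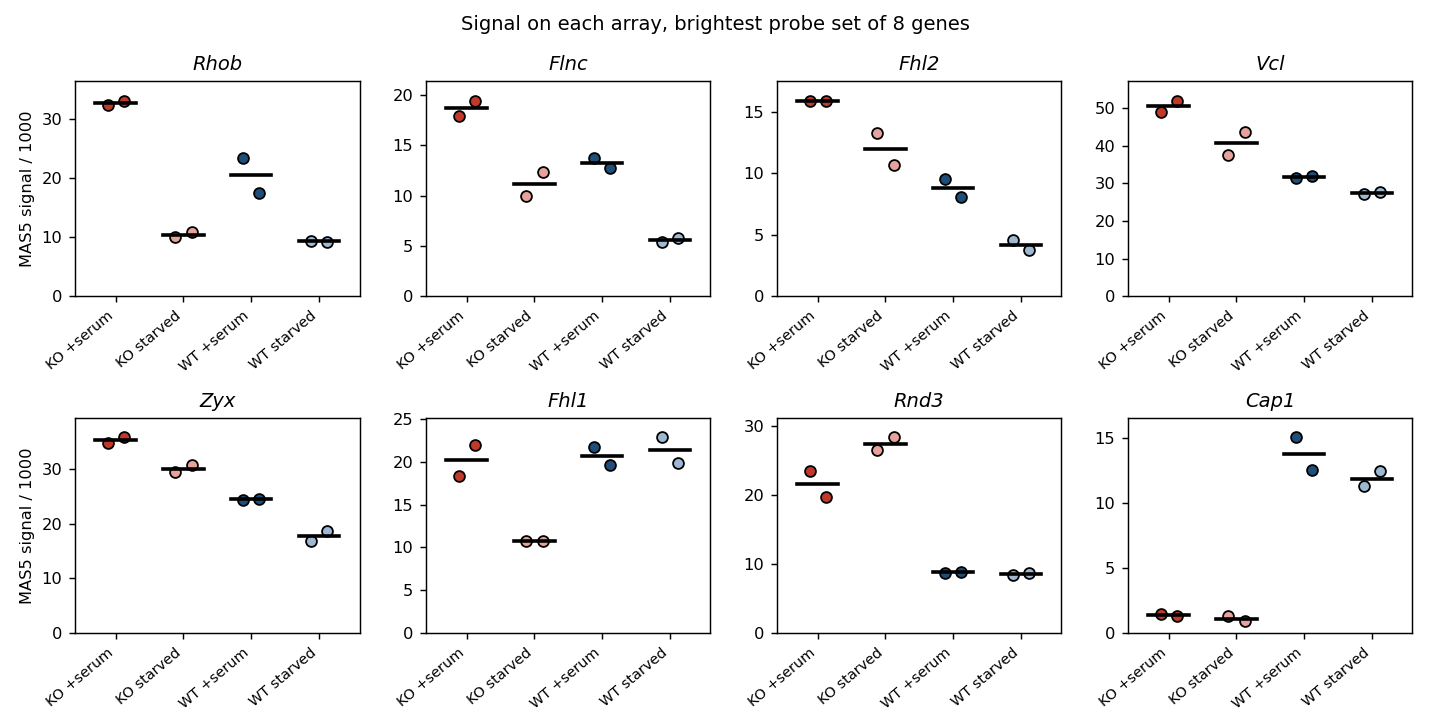
MAS5 signal (divided by 1000, linear axes from 0) of the brightest probe set of 8 genes on each of the 8 arrays; points are arrays and bars are group means. Rhob and Flnc were higher on both stimulated than on both starved arrays of each genotype, Fhl1 was low only on the 2 starved KO arrays (10748 and 10784), and Rnd3 and Cap1 parted the genotypes in both serum states.

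The serum comparisons asked which of these genes had changed 30 min after serum in each genotype. In KO cells 8 of the 39 genes rose and 2 fell. Of all 8453 tested genes, 8.41% were called up in KO cells and 15.2% down (23.6% in all). In WT cells 4 of the 39 rose and none fell, against 2.76% of all genes up and 1.99% down (4.74% in all). Only Rhob and Flnc rose in both genotypes, and the remaining rises were of 1.09 or less on the log2 scale. By the study's rule of a change over 2-fold, with arrays that do not overlap, 1 member rose in KO cells (Rhob) and 3 rose in WT cells (Flnc, Rhob and Fhl2). Of all genes, 3.27% passed that rule upward and 3.37% downward in KO cells, and 1.87% and 1.22% in WT cells. The members' median change was 0.09 in KO cells, where the median of all genes was -0.16, and 0.07 in WT cells, where it was -0.06. At an unadjusted p under 0.05, 12 members were up and 4 down in KO cells, and 7 were up and none down in WT cells. The share of all genes at that unadjusted threshold was not counted, so these counts cannot be set against it.

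**Figure D2:**
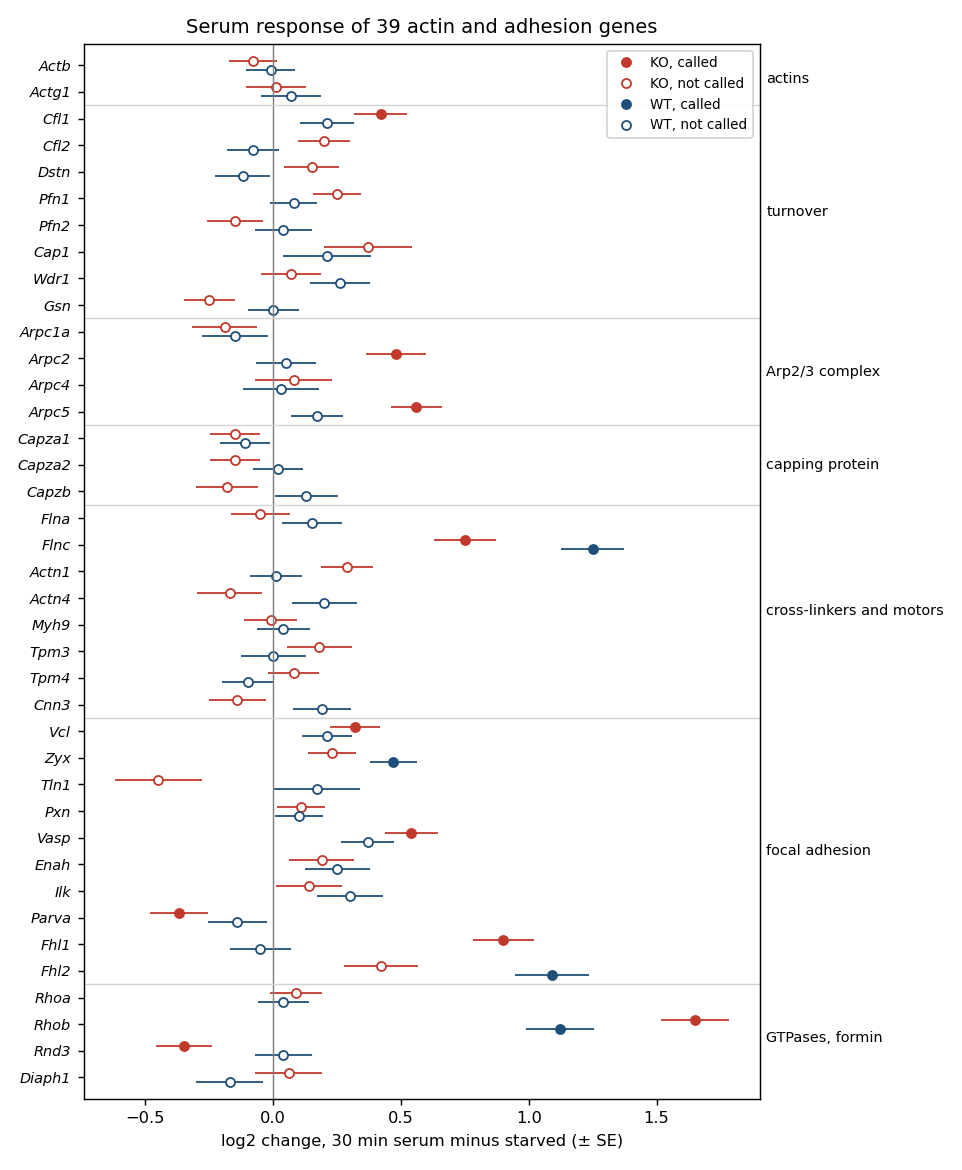
Change of log2(signal + 16), serum-stimulated minus starved, for the 39 genes in KO and WT cells, grouped by role; points are limma estimates, lines are ± SE, and filled points passed an adjusted p of 0.05. Rhob gave the highest value in KO cells (1.65) and Flnc in WT cells (1.25), and the 2 actins and 3 capping protein genes had no filled point.

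Among the genes of GTPases and formins, Rhob, an early serum target, gave the largest KO response of the list. Its signal was 32242 and 33033 in stimulated KO cells against 9921 and 10845 in starved KO cells, and 23384 and 17471 in stimulated WT cells against 9395 and 9222 in starved WT cells. In each genotype both stimulated arrays lay above both starved arrays. The change was 1.65 ± 0.133 in KO cells (3.14-fold, adjusted p = 2.68e-05) and 1.12 ± 0.133 in WT cells (2.17-fold, adjusted p = 0.000869). The KO response exceeded the WT response by 0.53, with a 95% interval of 0.11 to 0.95 before adjustment, and this difference did not pass the test (adjusted p = 0.168). Rnd3 is a known serum target too, but it read 23441 and 19664 in stimulated KO cells against 26483 and 28399 in starved KO cells. That was a fall of -0.35 ± 0.110 (adjusted p = 0.0436). In WT cells Rnd3 was level, at 8740 and 8803 after serum against 8356 and 8761 (0.04, adjusted p = 0.916). Its second probe set did not pass in KO cells either, and the fall was not called with any 1 of the 8 arrays left out or with each array centred on its median (-0.20, adjusted p = 0.324). Rhoa and the formin gene Diaph1 changed by 0.09 and 0.06 in KO cells and by 0.04 and -0.17 in WT cells, with no call.

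The focal adhesion genes gave 3 rises and 1 fall in KO cells and 2 rises in WT cells among 10 measured. Fhl1, a LIM-domain protein of adhesions and the nucleus, rose in KO cells. It read 18388 and 21968 in stimulated KO cells against 10748 and 10784 in starved KO cells, and 21811 and 19629 in stimulated WT cells against 22892 and 19934 in starved WT cells. Only the 2 starved KO arrays were low. The change was 0.90 ± 0.119 in KO cells (1.87-fold, adjusted p = 0.00068) and -0.05 ± 0.119 in WT cells (adjusted p = 0.893). Fhl2, a related LIM protein that is both an SRF target and an SRF partner, read 15933 and 15860 in stimulated KO cells against 13255 and 10679 in starved KO cells. In WT cells it read 9586 and 8117 after serum against 4551 and 3739. It rose in WT cells by 1.09 ± 0.145 (2.13-fold, adjusted p = 0.00186), while the KO value of 0.42 ± 0.145 was not called (adjusted p = 0.0631). The groups did not overlap in either genotype.

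Vcl encodes vinculin, which links talin to actin. Its brightest probe set read 49083 and 52033 in stimulated KO cells against 37571 and 43722 in starved KO cells, and 31482 and 31871 in stimulated WT cells against 27168 and 27739 in starved WT cells. The change of 0.32 ± 0.0972 was called in KO cells (adjusted p = 0.0402), and that of 0.21 in WT cells was not (adjusted p = 0.298). A second, dimmer Vcl probe set was called in both, at 0.71 in KO cells (adjusted p = 0.000638) and 0.65 in WT cells (adjusted p = 0.00296). Its signal was 27109 and 28734 in stimulated KO cells against 17009 and 17121 in starved KO cells, and 12821 and 12681 in stimulated WT cells against 7985 and 8245 in starved WT cells. On that probe set no group overlapped with another, so the call in WT cells depended on which probe set stood for the gene.

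Zyx encodes zyxin, a LIM protein recruited to adhesions under tension. It read 34816 and 35842 in stimulated KO cells against 29416 and 30777 in starved KO cells, and 24399 and 24603 in stimulated WT cells against 16777 and 18636 in starved WT cells. It rose in WT cells by 0.47 ± 0.0928 (adjusted p = 0.0186), and its KO value of 0.23 was not called (adjusted p = 0.0997). A dimmer Zyx probe set was not called in WT cells. Vasp, an elongation factor for actin filaments that zyxin recruits, had 11912 and 12776 in stimulated KO cells against 8684 and 8299 in starved KO cells, a rise of 0.54 ± 0.104 (adjusted p = 0.00534). In WT cells it had 11672 and 12840 after serum against 9651 and 9257, a value of 0.37 that was not called (adjusted p = 0.0832). Parva, which encodes alpha-parvin of the integrin-linked kinase complex, fell in KO cells, with 9556 and 9878 after serum against 12220 and 12865 (-0.37 ± 0.114, adjusted p = 0.0421). Tln1, Pxn, Enah and Ilk, which encode talin, paxillin, a VASP relative and integrin-linked kinase, were not called, with values between -0.45 and 0.19 in KO cells and between 0.10 and 0.30 in WT cells.

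Among cross-linkers and motors, 1 of 8 measured genes was called in each genotype, and it was Flnc in both. That is 12.5% in each, where 23.6% of all genes were called in KO cells and 4.74% in WT cells. Flnc encodes filamin C, a filament cross-linker best known from muscle. It read 17892 and 19427 in stimulated KO cells against 10001 and 12355 in starved KO cells, and 13700 and 12766 in stimulated WT cells against 5363 and 5749 in starved WT cells. All stimulated arrays lay above all starved arrays, also across genotypes. The rise was 0.75 ± 0.123 in KO cells (1.68-fold, adjusted p = 0.0024) and 1.25 ± 0.123 in WT cells (2.38-fold, adjusted p = 0.000244). The widely expressed filamin gene Flna changed by -0.05 and 0.15 in KO and WT cells, with no call. Myh9, the heavy chain of non-muscle myosin, changed by -0.01 and 0.04, and neither value was called.

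The remaining rises in KO cells were in genes that build or turn over filaments. The Arp2/3 complex starts branched filaments, and 2 of its 4 measured subunits rose in KO cells, where 8.41% of all genes rose. Arpc5 had 22237 and 22244 in stimulated KO cells against 14214 and 16103 in starved KO cells (0.56 ± 0.101, adjusted p = 0.0039), and 18376 and 18393 in stimulated WT cells against 15691 and 17099 in starved WT cells (0.17, adjusted p = 0.438). Arpc2 had 27432 and 26383 in stimulated KO cells against 20459 and 18140 in starved KO cells (0.48 ± 0.118, adjusted p = 0.0167). In WT cells Arpc2 had 24492 and 25739 after serum against 21769 and 27001, groups that overlapped (0.05, adjusted p = 0.879). Arpc1a and Arpc4 were at -0.19 and 0.08 in KO cells, with no call.

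Among 8 genes of filament turnover, 12.5% were called in KO cells, where 23.6% of all genes were. Only Cfl1, which encodes the severing protein cofilin, was called by its brightest probe set. It had 40519 and 41658 in stimulated KO cells against 32769 and 28864 in starved KO cells (0.42 ± 0.104, adjusted p = 0.0179), and 35666 and 32851 in stimulated WT cells against 27769 and 31549 in starved WT cells (0.21, adjusted p = 0.33). The related Cfl2 was not called by its brightest probe set (0.20, adjusted p = 0.178). A dimmer Cfl2 probe set read 2733 and 2628 in stimulated KO cells against 1094 and 1249 in starved KO cells, a change of 1.19 (adjusted p = 0.00048), while its WT arrays read 1832 and 1668 after serum against 1675 and 1491. The products of the 3 capping protein genes close the fast-growing filament end. By their brightest probe sets these genes lay between -0.18 and -0.15 in KO cells and between -0.11 and 0.13 in WT cells, with no call. A dimmer Capza1 probe set rose in KO cells by 0.55 (adjusted p = 0.0105). The actins were level. Actb had 63545 and 65374 in stimulated KO cells against 66857 and 69259 in starved KO cells (-0.08, adjusted p = 0.591), and 55801 and 56865 in stimulated WT cells against 52391 and 61653 in starved WT cells (-0.01, adjusted p = 0.969). Actg1 changed by 0.01 in KO cells and 0.07 in WT cells (adjusted p = 0.978 and 0.811), and the sign of these small actin values differed between scalings and when single arrays were left out.

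The calls in KO cells depended in part on single arrays. Rhob, Fhl1, Flnc and Arpc5 were called with any 1 of the 8 arrays left out, and in WT cells so were Flnc, Rhob and Fhl2. The count of 10 called members in KO cells was 5 without stimulated KO array 1, 5 without stimulated KO array 2 and 6 without starved KO array 2, and 5 without a mean-variance trend in the variance model. Vasp was lost without stimulated KO array 2 (adjusted p = 0.0537). Cfl1 and Arpc2 kept their calls in 5 of the 8 refits, Vcl in 3 and Parva in 2, and Zyx in WT cells in 3. With each array centred on its median signal, 13 members rose and none fell in KO cells, and with quantile normalization 10 rose and 3 fell. Centring moved the median of all tested probe sets in KO cells to 0.03, against -0.13 without it, and the fall of Parva was then not called (-0.21, adjusted p = 0.285).

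The test of the difference between the serum responses of KO and WT cells addressed the stated aim directly. It was passed by 1 of the 39 genes, Fhl1, and by 2.72% of all genes (1.56% with a larger and 1.16% with a smaller change in KO cells). No member had a difference over 2-fold with arrays apart, against 1.87% of all genes upward and 2.71% downward. The Fhl1 response was larger in KO cells by 0.95 ± 0.169 (adjusted p = 0.0195, 95% interval 0.57 to 1.33). Without stimulated KO array 2 it was 0.82 (adjusted p = 0.084), without stimulated WT array 2 it was 0.87 (adjusted p = 0.083), and without starved WT array 1 it was 0.85 (adjusted p = 0.0617). It was also not called without the mean-variance trend (adjusted p = 0.0814). Of the second probe sets, those of Cfl2 (1.04, adjusted p = 0.0315) and Capza1 (0.97, adjusted p = 0.0194) passed. The Cfl2 call was kept in 1 and the Capza1 call in 3 of the 8 refits with an array left out, and the brightest probe sets of these genes gave 0.28 and -0.04.

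For the other genes that rose with serum the difference was not resolved. The Flnc response was smaller in KO cells by -0.50, with a 95% interval of -0.89 to -0.11 before adjustment (adjusted p = 0.16), and that of Fhl2 by -0.68, with an interval of -1.14 to -0.22 (adjusted p = 0.117). For Vcl the difference was 0.11 (interval -0.19 to 0.41), for Zyx -0.24 (interval -0.53 to 0.05) and for Vasp 0.17 (interval -0.16 to 0.50). For Arpc5 it was 0.39 (interval 0.07 to 0.71, adjusted p = 0.182) and for Arpc2 0.43 (interval 0.06 to 0.80, adjusted p = 0.203). That these differences missed the threshold does not show equal responses. Of the 10 genes that rose in either genotype, 7 had a positive and 3 a negative difference. At an unadjusted p under 0.05, 4 members had a larger and 4 a smaller response in KO cells, and the share of all genes at that threshold was not counted.

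**Figure D3:**
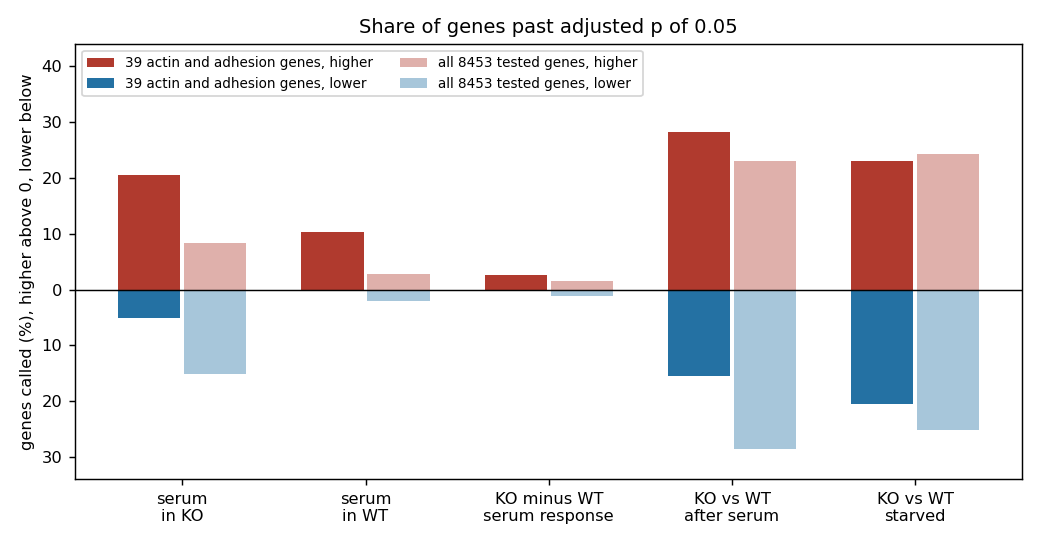
Share of genes (%) past an adjusted p of 0.05 in each of the 5 comparisons, higher above 0 and lower below, for the 39 actin and adhesion genes and for all 8453 tested genes. Both shares above 0 for serum were larger among the 39 genes (20.5% in KO and 10.3% in WT cells) than among all genes (8.41% and 2.76%), and the share lower in stimulated KO cells was 15.4% of the 39 genes and 28.5% of all genes. The 39 genes were chosen with earlier results of these data known, so these shares are no independent evidence.

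The genotype comparisons asked how the genes differed between KO and WT cells in each serum state. In starved cells 9 of the 39 were higher and 8 lower in KO cells, and after serum 11 were higher and 6 lower. That is 43.6% called in each state, below the 49.5% of all genes called in starved cells (24.3% higher, 25.2% lower) and the 51.6% called after serum (23.1% higher, 28.5% lower), so the number of calls is not a result about these genes. The size and the identity of the changes are given instead. Across both states 7 genes were higher in KO cells, namely Rnd3, Fhl2, Flnc, Zyx, Vcl, Parva and Actg1, and 5 were lower, namely Cap1, Enah, Gsn, Capza1 and Actn4. By the rule of over 2-fold with arrays apart, Rnd3 was higher and Cap1 lower in both states, and Fhl2 was higher in starved cells. Of all genes, 8.66% passed that rule upward and 12.1% downward after serum, and 9.46% and 10.6% in starved cells. The stimulated and the starved genotype comparison use different arrays. The median difference of the members was 0.08 in both states, where that of all genes was 0.0 in starved cells and -0.08 after serum.

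**Figure D4:**
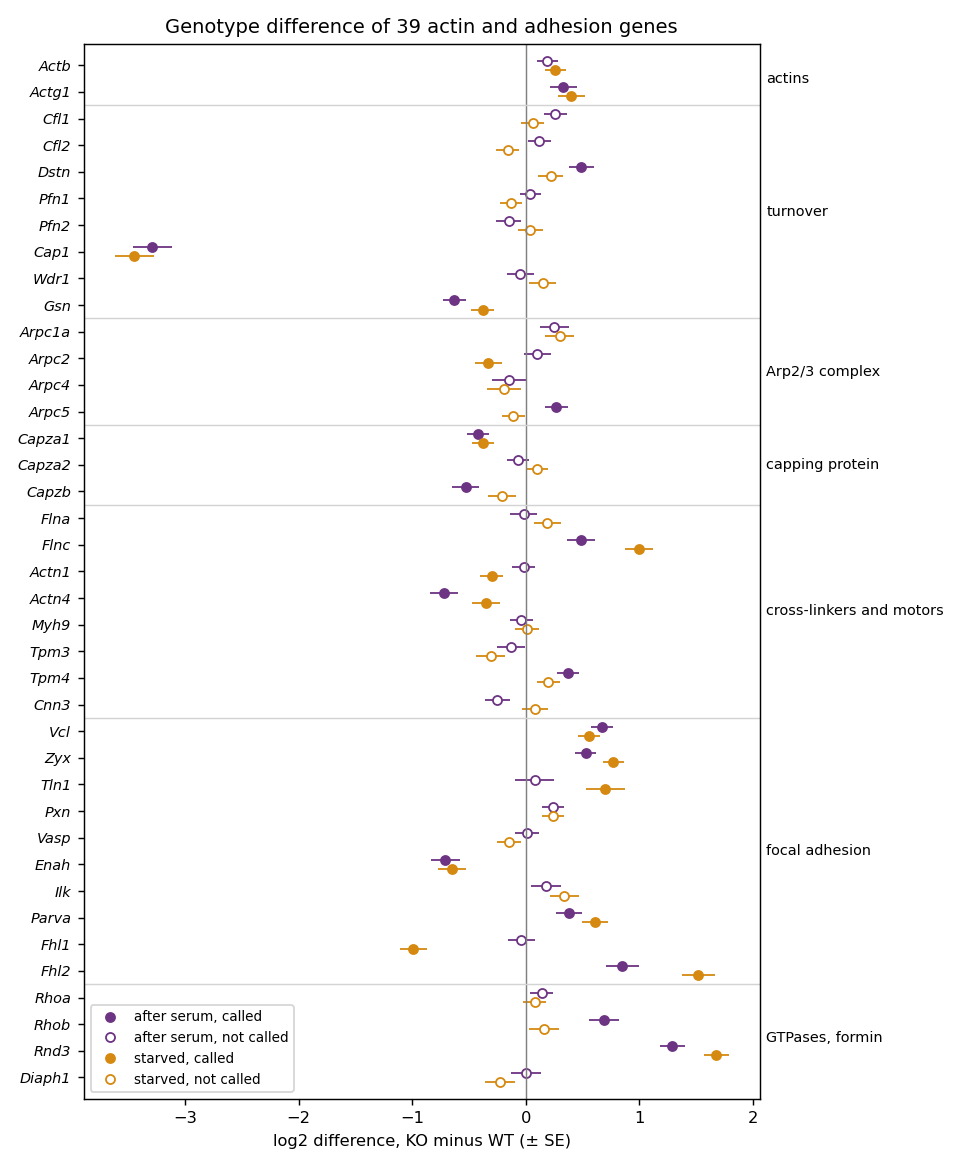
Difference of log2(signal + 16), KO minus WT, for the 39 genes after serum and in starved cells, grouped by role; points are limma estimates, lines are ± SE, and filled points passed an adjusted p of 0.05. Cap1 stands apart at -3.29 after serum and -3.45 starved, and Rnd3 and Fhl2 have the highest values in starved cells (1.68 and 1.52).

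Cap1, which encodes a protein that binds actin monomers and recharges them for assembly, showed the widest genotype difference of the list. It read 1448 and 1336 in stimulated KO cells against 15057 and 12541 in stimulated WT cells, and 1276 and 895 in starved KO cells against 11292 and 12474 in starved WT cells. The KO and WT arrays lay far apart in both states. The difference was -3.29 ± 0.173 after serum (9.78-fold lower, adjusted p = 4.19e-07) and -3.45 ± 0.173 in starved cells (11-fold lower, adjusted p = 3.02e-07). A second Cap1 probe set gave -3.02 and -3.87, with KO arrays between 362 and 1005 and WT arrays between 7479 and 9004. Other genes of turnover differed less. Gsn, which encodes the severing and capping protein gelsolin, had 18198 and 19407 in stimulated KO cells against 29317 and 28927 in stimulated WT cells (-0.63 ± 0.0994, adjusted p = 0.000518). In starved cells it had 21105 and 23724 in KO against 27994 and 30481 in WT (-0.38, adjusted p = 0.00952), a call lost without starved WT array 2 (-0.32, adjusted p = 0.0573). A second bright Gsn probe set gave larger values, -1.0 after serum (adjusted p = 0.000211) and -1.01 in starved cells (adjusted p = 0.000203), both called with any 1 of the 8 arrays left out. Dstn, which encodes destrin, a cofilin relative, was higher in stimulated KO cells, at 34701 and 36350 against 26889 and 23840 in stimulated WT cells (0.49 ± 0.109, adjusted p = 0.00404). Cfl1, Pfn1 and Pfn2, the genes of cofilin and the profilins, and Wdr1, which encodes a cofilin helper, lay between -0.15 and 0.26 in both states with no call. Cfl2 was not called by its brightest probe set in either state. A dimmer Cfl2 probe set was higher in KO cells after serum, by 0.61 (adjusted p = 0.00652). In starved cells it was lower by -0.43 (adjusted p = 0.0362), a call kept in 3 of the 8 refits.

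Rnd3 was the member most raised in KO cells. Its signals, given above, were between 19664 and 28399 on the 4 KO arrays and between 8356 and 8803 on the 4 WT arrays, with no overlap. The difference was 1.29 ± 0.110 after serum (2.45-fold, adjusted p = 9.64e-06) and 1.68 ± 0.110 in starved cells (3.2-fold, adjusted p = 1.64e-06). The second Rnd3 probe set gave 1.36 and 1.27, with KO arrays between 18813 and 21370 and WT arrays between 7873 and 8241. Rhob did not differ by a called amount in starved cells (0.16, adjusted p = 0.363) and was higher in KO cells after serum (0.69 ± 0.133, 1.61-fold, adjusted p = 0.00176). Rhoa differed by 0.14 and 0.08 after serum and in starved cells and Diaph1 by 0.00 and -0.23, with no call.

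Among the 10 adhesion genes, 4 were higher and 1 lower in KO cells after serum, and 5 were higher and 2 lower in starved cells. Fhl2, whose signals are given above, was higher in KO cells by 0.85 ± 0.145 after serum (1.8-fold, adjusted p = 0.000853) and by 1.52 ± 0.145 in starved cells (2.88-fold, adjusted p = 1.93e-05). Its starved KO arrays, at 13255 and 10679, lay above the stimulated WT arrays, at 9586 and 8117. The difference of Vcl was 0.67 ± 0.0972 after serum (adjusted p = 0.000301) and 0.56 ± 0.0972 in starved cells (adjusted p = 0.000953), and its second probe set gave 1.13 and 1.07. Zyx differed by 0.53 ± 0.0928 after serum (adjusted p = 0.00102) and by 0.77 ± 0.0928 in starved cells (adjusted p = 0.0001). For Vcl and Zyx, as for Fhl2, every KO array was brighter than every WT array, whichever serum state was set against which.

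Fhl1 ran the other way in starved cells, where KO signals of 10748 and 10784 stood against 22892 and 19934 in WT cells (-0.99 ± 0.119, 1.98-fold lower, adjusted p = 9.88e-05). After serum KO and WT arrays overlapped (-0.04, adjusted p = 0.791). Enah was lower in KO cells in both states, with 8049 and 8010 in stimulated KO cells against 11990 and 14348 in stimulated WT cells (-0.71 ± 0.127, adjusted p = 0.00115), and 7186 and 6868 in starved KO cells against 12058 and 10089 in starved WT cells (-0.65, adjusted p = 0.00199). Parva was higher by 0.38 after serum (adjusted p = 0.0185) and 0.61 in starved cells (adjusted p = 0.00154), although the call after serum was kept in 4 of the 8 refits. Tln1 had 18956 and 20398 in starved KO cells against 11709 and 12490 in starved WT cells (0.70 ± 0.171, adjusted p = 0.00691), while the median over its probe sets gave 0.23 (adjusted p = 0.174). Pxn, Vasp and Ilk lay between -0.15 and 0.34 in both states with no call.

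Among cross-linkers, Flnc was higher in KO cells by 0.49 ± 0.123 after serum (adjusted p = 0.0074) and by 1.00 ± 0.123 in starved cells (2-fold, adjusted p = 0.000112). The first of these calls was lost without stimulated KO array 2 or stimulated WT array 2 (adjusted p = 0.0636 and 0.0515). Actn4, an alpha-actinin, which bundles filaments, had 15551 and 18530 in stimulated KO cells against 27382 and 28502 in stimulated WT cells (-0.72 ± 0.127, adjusted p = 0.00106). In starved cells it had 17374 and 21083 in KO against 22924 and 25830 in WT (-0.35, adjusted p = 0.0457), a call kept in 1 of the 8 refits. Actn1, the other alpha-actinin, differed by -0.02 after serum with no call and by -0.30 in starved cells (adjusted p = 0.033), kept in 1 of the 8 refits, while its 2 dimmer probe sets were called lower in both states, by -0.65 to -0.86. The tropomyosin gene Tpm4 was higher after serum, at 36361 and 38308 in KO against 28588 and 29015 in WT (0.37, adjusted p = 0.0104), a call lost without stimulated KO array 2 or stimulated WT array 1 and with quantile normalization (0.12, adjusted p = 0.163). Flna, Myh9, Tpm3 and Cnn3, which encodes a calponin, were not called by their brightest probe sets, with values between -0.31 and 0.19. Dimmer probe sets of 2 of these genes were called. For Tpm3, 3 of them were lower in KO cells in both states, by -0.48, -0.74 and -0.80 after serum and by -0.91, -0.87 and -1.19 in starved cells. For Myh9, 2 were higher in KO cells after serum, by 0.83 and 0.84, and another in starved cells, by 0.42.

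The capping protein and Arp2/3 genes gave small differences. Capzb was lower in stimulated KO cells, at 17178 and 17827 against 24682 and 25771 in WT cells (-0.53 ± 0.122, adjusted p = 0.00505). Its brightest probe set was not called in starved cells. A dimmer Capzb probe set was lower in both states, by -0.51 after serum (adjusted p = 0.00156) and -0.47 in starved cells (adjusted p = 0.00269). Another was lower after serum, by -0.56 (adjusted p = 0.0113). Capza1 was lower in both states by its brightest probe set (-0.42 after serum, adjusted p = 0.00528, and -0.38 in starved cells, adjusted p = 0.00924). The first call was lost with median centring (-0.25, adjusted p = 0.0898) and the second without starved WT array 2 (-0.29, adjusted p = 0.0648). A dimmer Capza1 probe set, with 8945 and 8099 in stimulated KO cells against 6368 and 6897 in stimulated WT cells, was called the opposite way after serum (0.36, adjusted p = 0.0323), so the direction for Capza1 in stimulated cells is not settled by these arrays. Arpc5 was higher after serum by 0.27 (adjusted p = 0.0441, kept in 4 of the 8 refits) and Arpc2 lower in starved cells by -0.33 (adjusted p = 0.0412, kept in 2). Actg1 was higher in KO cells by 0.33 after serum (adjusted p = 0.0396) and 0.40 in starved cells (adjusted p = 0.0187), and Actb by 0.26 in starved cells (adjusted p = 0.0446), calls kept in 4, 6 and 1 of the 8 refits with an array left out. With quantile normalization these actin values were 0.07, -0.03 and -0.18, so their direction in starved cells depended on the scaling.

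**Figure D5:**
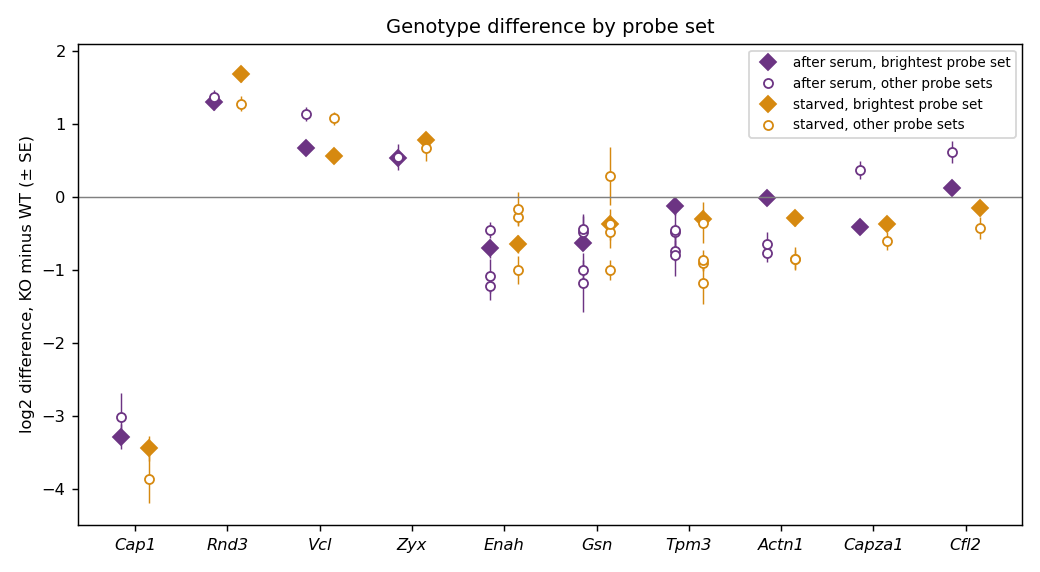
Difference of log2(signal + 16), KO minus WT, for each tested probe set of 10 genes after serum and in starved cells; diamonds are the brightest probe set, open circles the others and lines ± SE. All probe sets of Cap1, Rnd3, Vcl and Zyx lay on the same side of 0, whereas the 2 Capza1 probe sets were on opposite sides after serum.

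Of the 39 genes, 24 had 2 or more tested probe sets. The calls of these differed within a gene for 7 genes in the KO serum comparison, 2 in the WT serum comparison, 10 in the starved and 6 in the stimulated genotype comparison, and Capza1 was the 1 gene with opposite calls. For Cfl1 and Parva with serum in KO cells, a dimmer probe set was not called. The same held for Actb, Enah, Gsn and Parva in the starved genotype comparison. Of the starved genotype calls, 10 of 17 were kept with any array left out, and of those after serum 12 of 17. With quantile normalization the genotype split was 8 higher and 11 lower in starved cells and 8 higher and 9 lower after serum, and with median centring it was 11 higher and 5 lower, and 16 higher and 5 lower. The fibroblast and smooth muscle marker sums given above were higher on all KO than on all WT arrays. Sums of linear signals lean on the brightest markers. After serum, group means in KO and WT cells were 64294 and 5093 for Col1a2 and 46864 and 9842 for Col3a1. Fn1 (43889 and 51292) and Sparc (39280 and 45879) ran the other way, with no call. Of the 10 tested fibroblast markers, 7 had a positive and 3 a negative difference after serum. In starved KO cells 7 of 10 fibroblast markers and 7 of 9 smooth muscle markers were called higher, and 6 and 5 after serum. Of all genes, 24.3% were called higher in starved KO cells and 23.1% after serum. In each list and each state 1 marker was called lower in KO cells. These were Dcn (-1.13 starved, -0.86 after serum), Cnn1 (-1.4 starved) and Smtn (-0.71 after serum). The part of the markers in the genotype differences was not tested. In the serum comparisons none of the fibroblast markers rose by its brightest probe set. Pdgfra fell in both, with values of -1.03 in KO cells and -2.28 in WT cells (adjusted p = 0.00824 and 0.000196). The WT signals were dim, at 13.48 and 13.25 after serum against 124 and 129. The size of the WT fall depended on the pseudocount, and with the largest one tried it was -0.51 (adjusted p = 0.127). With only the arrays compared the WT fall was not called either (adjusted p = 0.0955). The KO value lay between -1.28 and -0.78 with single arrays left out, and its call was not kept in every refit. A second Fn1 probe set rose by 2.51 in KO cells and 0.61 in WT cells, with a called difference of 1.90 (adjusted p = 0.000546). Of the 9 smooth muscle markers, only Cnn1 rose in KO cells by its brightest probe set, with a called difference of 1.67 (adjusted p = 0.00471). Dimmer probe sets of Acta2 and Tpm1 rose as well. That of Acta2 rose by 1.28 in KO cells (adjusted p = 0.000663). That of Tpm1 rose by 1.13 in KO cells (adjusted p = 0.0013) and by 0.85 in WT cells (adjusted p = 0.0178). The part of these marker changes in the serum results was not tested either.

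Starved levels and serum responses can be read together for the 10 genes that rose with serum in either genotype. In starved cells, 4 of them (Fhl2, Flnc, Zyx and Vcl) were higher in KO cells and 2 (Fhl1 and Arpc2) lower. After serum 6 were higher in KO cells (Rhob, Fhl2, Flnc, Vcl, Zyx and Arpc5) and none was lower. Of all genes, 24.3% were called higher and 25.2% lower in starved KO cells, and 23.1% and 28.5% after serum. Starved levels and responses use the same starved arrays, so a high starved value lowers the response computed from it. Of the 10 genes, 8 were picked through a rise in KO cells, which uses the stimulated KO arrays. That pick favours higher KO values after serum. A pick through a rise also favours low starved values in the genotype that rose. Neither the starved count nor the count after serum is therefore an independent result. The readings are given only side by side. In all, 15 of the 39 genes were called in none of the 5 comparisons by their brightest probe sets. These were Cfl2, Pfn1, Pfn2, Wdr1, Arpc1a, Arpc4, Capza2, Flna, Myh9, Tpm3, Cnn3, Pxn, Ilk, Rhoa and Diaph1.

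Srf itself, which encodes the shared regulator, rose with serum in both genotypes. It read 22664 and 21160 in stimulated KO cells against 8692 and 9270 in starved KO cells, and 11168 and 13546 in stimulated WT cells against 3781 and 4434 in starved WT cells. The rise was 1.29 ± 0.128 in KO cells (adjusted p = 0.000109) and 1.58 ± 0.128 in WT cells (adjusted p = 5.32e-05), and the difference of -0.30 between them was not called (adjusted p = 0.411). Srf was higher in KO cells by 0.83 after serum (adjusted p = 0.000458) and by 1.13 in starved cells (adjusted p = 6.6e-05). A dimmer Srf probe set was called higher in starved KO cells (0.78, adjusted p = 0.00442) but not after serum (0.36, adjusted p = 0.111). Mrtfa, the gene of an actin-regulated SRF cofactor, had 6697 and 6610 in stimulated KO cells against 11051 and 10645 in starved KO cells (-0.70 ± 0.123, adjusted p = 0.00321), and in WT cells it changed by -0.12 with no call. Of the ternary complex factors, Elk1 was not called in any comparison. Elk3 was lower in KO cells in both states (-0.82 after serum, adjusted p = 0.00157, and -0.50 in starved cells, adjusted p = 0.022). By its brightest probe set, Elk4 was lower in starved KO cells (-0.82, adjusted p = 0.00177) and rose with serum in KO cells (0.56, adjusted p = 0.0292, kept in 4 of the 8 refits). A dimmer Elk4 probe set showed neither change (0.09, adjusted p = 0.811, and -0.07, adjusted p = 0.895).

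A second list of 66 actin and adhesion genes, 54 of them measured, gave the setting. With serum 12 rose and 4 fell in KO cells and 6 rose and none fell in WT cells, with medians of 0.06 and 0.07. That is 29.6% and 11.1% of the list called, where 23.6% and 4.74% of all genes were. Itga5, the fibronectin receptor subunit alpha 5, had 9211 and 10322 in stimulated KO cells against 2256 and 1842 in starved KO cells (2.25 ± 0.143, adjusted p = 4.32e-06), and 10157 and 11702 in stimulated WT cells against 3603 and 4108 in starved WT cells (1.50 ± 0.143, adjusted p = 0.000196). Bcar1, an adhesion scaffold, rose by 1.60 in KO cells (adjusted p = 9.92e-05), Fscn1, the bundling protein fascin, by 0.58 (adjusted p = 0.00225) and Pdlim5 by 0.51 (adjusted p = 0.00395). In WT cells Lima1, an actin cross-linker, rose by 0.99 (adjusted p = 0.000553), Rhoj by 0.80 (adjusted p = 0.0235) and Pdlim7 by 0.53 (adjusted p = 0.0205), the last pair with calls kept in 5 and 4 of the 8 refits. By brightest probe set, none of the 54 had a called difference between the serum responses in limma. At an unadjusted p under 0.05, 8 had a larger and 7 a smaller response in KO cells, with no share of all genes counted at that threshold. The nearest of the 54 to a call was Bcar1 at 0.94 (adjusted p = 0.0565). Over all 128 tested probe sets of the list, 1 was called, with a smaller response in KO cells.

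By genotype, 15 of these 54 genes were higher and 20 lower in KO cells after serum, and 10 were higher and 20 lower in starved cells. That is 64.8% and 55.6% of the list, where 51.6% and 49.5% of all genes were called. Tes, a LIM protein that binds zyxin, had 1987 and 1664 in stimulated KO cells against 11266 and 12405 in stimulated WT cells (-2.69 ± 0.133, adjusted p = 2.91e-07) and was at -2.67 in starved cells. The kinase gene Src was lower by -2.17 after serum (adjusted p = 5.79e-06), the coronin gene Coro1c by -1.52 (adjusted p = 8.3e-06) and Mical2, whose product oxidises actin, by -2.63 (adjusted p = 8.43e-06). In starved cells Lima1 was higher by 1.87 (adjusted p = 7.63e-07), Rhoj by 2.40 (adjusted p = 2.2e-06) and Ezr, the membrane linker ezrin, by 2.20 (adjusted p = 4.66e-06). A second Ezr probe set read -1.43 in the same comparison, so the direction for Ezr rests on the brighter probe set.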

How the data were processed

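Total RNA from the 8 samples was labelled with biotin, per the labels' protocols. The authors deposited 1 intensity per probe set and array, a linear MAS5 signal according to the submitters' processing notes, with no version given. The array platform and detection calls are not given in the sources used here. MAS5 subtracts mismatch signal, which makes dim values noisy.

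Of 22690 probe sets, 64 were controls and were left out. The filter kept the 14947 that reached the 40th percentile of an array on 2 or more of the 8 arrays. In the probe table given for the arrays, 20380 probe sets named 1 gene, 691 several and 1555 none, and only those with 1 gene were named. A gene was represented by its brightest probe set, taken on the mean of log2 signals over all arrays. Intensities, as deposited, were analysed as log2(signal + 16) with limma 3.58.1 in R 4.3.3, by 1 mean per group fitted to all 8 arrays, moderated variances (eBayes) that follow a trend in mean signal, and two-sided tests with Benjamini-Hochberg adjustment over all tested probe sets. A call was an adjusted p under 0.05. The fit had 4 residual degrees of freedom. An exact permutation test of 2 arrays against 2 reaches 0.333 at best, so the calls use a spread pooled over groups and probe sets, and the number of arrays limits the precision. The 5 comparisons were serum in KO, serum in WT, their difference, and KO against WT in each serum state. Each serum comparison shares arrays with each genotype comparison, so these are not independent of each other.

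Members called in a comparison with groups that do not overlap were named, up to 12 in each direction by size, with Actb, Actg1, Rhob, Rnd3 and Vcl in any case, and up to 4 genes per comparison with the smallest p from the second list. Members and lists were chosen with earlier results of these data known. Alternatives were pseudocounts of 1, 64 and 256, median centring or quantile normalization, a 60th percentile filter or none, no mean-variance trend, only the arrays compared, the median over probe sets, probe sets with a letter suffix left out, set number as a block and each array left out in turn. Promoter windows came from RefSeq, GRCm38.p6.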

Additional observations from a re-analysis of the deposited data

Results flagged for a closer look

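One result met a rule for a closer look, because the serum response differed between the genotypes by a test of that difference. Fhl1 changed by 0.90 in KO cells and by -0.05 in WT cells, a difference of 0.95 (limma adjusted p = 0.0195). It rested on low signals on both starved KO arrays, 10748 and 10784, while the other 6 arrays lay between 18388 and 22892. Leaving out stimulated KO array 2, stimulated WT array 2 or starved WT array 1 left values of 0.82, 0.87 and 0.85 that were not called. Groups of 2 arrays are too small for a search for outlying arrays.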

How the results depend on the processing

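Over 20 alternatives, 8 of which left out an array, 1421 values were recomputed and 1254 were rated as kept. Of these, 1071 were single-gene values that kept their direction and their side of the threshold. The remaining kept values were 91 counts within a set ratio of the main count, and 92 medians that moved by no more than a replicate spread. Without a mean-variance trend the number of called genes was 5 for serum in KO cells and 0 for the difference of the responses. With single arrays left out, the counts were 5 to 10 for serum in KO cells, 3 to 4 for serum in WT cells, 0 to 1 for the difference, 12 to 19 for KO against WT after serum and 13 to 18 in starved cells. Medians of the 39 genes moved to 0.25 (serum in KO), 0.08 (difference) and 0.24 (KO against WT after serum) with median centring. With quantile normalization they were -0.04 after serum and -0.14 in starved cells, and with suffix probe sets left out -0.11 in starved cells; without starved WT array 1 that of the difference was 0.05.

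Apart from those medians, some of which changed sign, the single-gene values that changed sign were all of Actb and Actg1. For Actb, serum in KO cells was 0.08 with centring and 0.09 with quantile normalization, and serum in WT cells 0.02 with centring and 0.10 without starved WT array 2. The Actb difference of responses was 0.05 with centring, 0.12 with quantile normalization, 0.03 without suffix probe sets and 0.05 without starved WT array 1. KO against WT for Actb was -0.06 after serum and -0.18 in starved cells with quantile normalization. For Actg1, the difference of responses was 0.05 with centring, 0.10 with quantile normalization, 0.07 without starved KO array 2 and 0.06 without starved WT array 1. Serum in KO cells for Actg1 was -0.01 without stimulated KO array 2 and -0.14 without starved KO array 1, serum in WT cells -0.05 without starved WT array 1, and KO against WT in starved cells -0.03 with quantile normalization. With single arrays left out, the range was -0.14 to 0.15 for Actg1 with serum in KO cells, -0.05 to 0.20 for Actg1 and -0.13 to 0.10 for Actb with serum in WT cells, and -0.21 to 0.07 for Actg1 and -0.18 to 0.05 for Actb in the difference of responses. The cause was not tested.

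With set number as a replicate block, the counts were 12, 4, 1, 17 and 18 for serum in KO, serum in WT, the difference, and KO against WT after serum and in starved cells. Differences between set 2 and set 1 correlated across probe sets at 0.214 between the WT groups and at -0.034 to 0.097 between the other pairs of groups. The numbers were therefore not taken as pairs for the 4 groups, although the 2 WT sets differed alike in both serum states, as in Col1a2. The deposited signals carry no background or detection value, so signal over background could not be given.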
